A study of Homo sapiens with 12 samples.

Results

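The BCL2 family sets the threshold for apoptosis at the mitochondrion, and 10 of its genes were examined in RNA sequencing of PC9, a human lung adenocarcinoma cell line that depends on a mutant EGFR. The 10 genes were taken by symbol from a table of 62754 Ensembl gene identifiers, and each symbol matched a single identifier. They comprised 5 BH3-only genes (BCL2L11, BMF, BBC3, PMAIP1 and BIK), 3 anti-apoptotic genes (BCL2, BCL2L1 and MCL1) and 2 effectors (BAX and BAK1). The 12 libraries fell into 4 groups of 3 replicate cultures: TDP1 wild-type cells left untreated, TDP1 wild-type cells kept in erlotinib at 1 µM for 7 days (the labels' drug-tolerant cells, DTC) or for 28 days (drug-tolerant expanded cells, DTEC), and a TDP1 knockout line, KO2, left untreated. Erlotinib inhibits the EGFR kinase, and TDP1 is the enzyme that removes trapped topoisomerase I from DNA. All groups came from a subclonal PC9 line, the knockout was represented by 1 line, and the cultures of a condition were split from a shared flask before being grown apart, so p-values measure the spread between such cultures. No erlotinib-treated knockout culture was analysed here.

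BH3-only proteins are the sensors of the family. They bind and neutralise the anti-apoptotic proteins, and some of them can activate the effectors directly. Once free, BAX and BAK1 permeabilise the outer mitochondrial membrane, which releases cytochrome c and starts the caspase cascade. In EGFR-mutant lung cancer cells, signalling through the ERK pathway keeps the protein BIM, encoded by BCL2L11, low, and BIM is known for its part in the death of such cells under EGFR inhibitors. The anti-apoptotic BCL2L1 and MCL1 products are known to support the survival of epithelial tumour cells.

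RefSeq promoter windows (GRCh38.p14, 250 bases before to 50 after the annotated start) were found for 8 of the 10 genes. MCL1 and BIK had no matching entry. Shown are BCL2L11, the gene best known in this drug response, BMF, the member with the widest range of levels in fold, and BAX, the effector with the higher level. The BCL2L11 window lies at chr2:111120664-111120963 on the plus strand, the BMF window at chr15:40108830-40109129 on the minus strand and the BAX window at chr19:48954625-48954924 on the plus strand. Capitals mark a forkhead core motif (GTAAACA) in BCL2L11, a CCAAT box (written ATTGG on this strand) and 2 GC boxes (GGGCGG or CCGCCC) in BMF, and 4 E-boxes (CACGTG) in BAX, each read 5′ to 3′.
BCL2L11: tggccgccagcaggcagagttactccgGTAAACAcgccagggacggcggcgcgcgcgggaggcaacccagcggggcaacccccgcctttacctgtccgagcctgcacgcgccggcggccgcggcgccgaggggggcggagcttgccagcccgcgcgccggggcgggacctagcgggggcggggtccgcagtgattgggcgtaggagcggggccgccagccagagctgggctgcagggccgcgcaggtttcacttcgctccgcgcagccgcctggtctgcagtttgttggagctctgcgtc
BMF: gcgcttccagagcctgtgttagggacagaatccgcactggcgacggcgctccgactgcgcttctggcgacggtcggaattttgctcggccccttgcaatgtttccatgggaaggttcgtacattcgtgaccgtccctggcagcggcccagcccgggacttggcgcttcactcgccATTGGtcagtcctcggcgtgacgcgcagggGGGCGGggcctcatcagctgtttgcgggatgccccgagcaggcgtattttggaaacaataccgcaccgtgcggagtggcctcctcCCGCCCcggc
BAX: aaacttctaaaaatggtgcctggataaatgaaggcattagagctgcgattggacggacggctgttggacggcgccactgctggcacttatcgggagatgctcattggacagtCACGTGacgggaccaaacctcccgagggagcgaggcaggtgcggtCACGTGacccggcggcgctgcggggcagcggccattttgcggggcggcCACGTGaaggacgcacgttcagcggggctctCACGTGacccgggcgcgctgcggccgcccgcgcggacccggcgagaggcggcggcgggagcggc
Motifs were searched on both strands in 35116 windows of the same length. The forkhead core, the letters bound by FOXO factors, occurred in 3.42% of all windows, and among the 8 family genes matched it was found only in BCL2L11, where it began 223 bases before the start. An E-box occurred in 7.26% of windows and in the family in BBC3 and BAX. The 4 copies in BAX began 138, 93, 45 and 14 bases before the start, and 5 of the 35116 windows held at least 4 copies. GC boxes and CCAAT boxes were common, in 45.0% and 34.6% of windows. They are in capitals only in BMF, but BCL2L11 also held 3 GC boxes and 1 CCAAT box, and BAX held 2 of each. The BCL2L11 window had 74.7% GC and 39 CpG sites, against medians of 58.7% and 14 over all windows. BMF had another window, at chr15:40106917-40107216, which is not shown. It had 50.3% GC, 1 CpG site and no forkhead core, E-box, GC box or CCAAT box. A motif match describes the letters in the window, and binding was not measured.

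The libraries held 25572691 to 38373679 estimated counts, and 3 counts, taken as the counting floor, corresponded to 0.0782 to 0.117 CPM. CPM divides a gene's counts by the scaled total of its library. TDP1 itself averaged 26.3 ± 1.60 CPM in untreated wild-type cells and 10.8 ± 0.648 CPM in the knockout line (SD, n = 3), a log2 fold change of -1.29 (SE 0.11, adjusted p = 1.31e-05, edgeR quasi-likelihood test), in the direction of the label. By the same test TDP1 also fell in wild-type DTC, to 13.96 ± 1.55 CPM (log2 -0.92, SE 0.11, adjusted p = 3.57e-06). In DTEC it stood at 26.6 ± 1.54 CPM (log2 0.02, SE 0.11, adjusted p = 0.904). Lower TDP1 RNA was thus not particular to the knockout line, though its libraries lay below those of DTC without overlap. The mitochondrially encoded share of counts lay between 2.504% and 2.77% in untreated wild-type libraries, between 4.43% and 5.41% in DTC, between 1.82% and 2.38% in DTEC and between 2.59% and 2.78% in the knockout. All 6 epithelial markers were expressed in every group, and their summed level was 10794 to 11392 CPM in untreated wild-type cells, against 6293 to 7277 CPM for DTC, 9276 to 12151 CPM for DTEC and 11479 to 12314 CPM for the knockout. Of 6 fibroblast markers, only COL1A1 reached 1 CPM, with summed levels of 7.99 to 8.91 CPM in untreated wild-type cells, 55.0 to 57.6 CPM for DTC, 11.1 to 14.1 CPM for DTEC and 13.4 to 15.1 CPM for the knockout, and LUM and COL1A2 were at 0 counts in untreated wild-type cells and in DTEC. Leukocyte markers summed to 27.0 to 33.9, 38.9 to 55.3, 35.1 to 41.7 and 25.9 to 29.4 CPM in the same order, and CD3E was at 0 counts in untreated wild-type and knockout cells. Most of the leukocyte sum was CD68, which averaged 29.8, 46.4, 37.3 and 27.5 CPM. Endothelial markers summed to 58.5 to 61.4, 42.2 to 50.1, 122 to 142 and 75.8 to 77.2 CPM in that order, and EMCN was at 0 in untreated wild-type and knockout cells. Most of the endothelial sum was PECAM1, at means of 32.0, 8.77, 92.1 and 48.4 CPM, and CDH5, at 27.7, 35.0, 36.7 and 28.0 CPM. The part of these differences in the results below was not tested. DTC replicate 1 stood slightly apart from the other DTC libraries, with a mean correlation across genes of 0.975 to them, against 0.980 and 0.982.

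After 7 days in erlotinib all 5 BH3-only genes rose and all 3 anti-apoptotic genes fell, as did the effector BAX, while BAK1 did not pass the test. The fall of MCL1 was small and held in 2 of 14 alternatives. In all, 9 of the 10 genes were called at an adjusted p under 0.05, against 67.3% of the 17115 genes tested. By direction, 34.0% of tested genes passed as higher and 33.3% as lower. In 8 of the 10 genes the 3 DTC libraries did not overlap the 3 untreated ones, a pattern that 68.9% of all genes showed. The median log2 fold change of the family was 0.30, against 0.06 over all genes tested. Scaling to total counts without a composition factor shifted the all-gene median up by 0.35, and 68.4% of all calls were then increases, against 50.5%. Upper-quartile scaling shifted it up by 0.29, with 65.0% increases. Total RNA from a culture cannot tell fewer cells of a kind from less RNA per cell.

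BCL2L11 (chr2:111119378-111168447, plus strand, GRCh38 by GENCODE 29, as for the genes that follow) measured 35.8, 32.0 and 35.5 CPM in the 3 untreated wild-type libraries, 59.3, 53 and 50.02 CPM in DTC, 46.6, 47.0 and 39.7 CPM in DTEC and 38.5, 40.8 and 36.6 CPM in the knockout. Every DTC library lay above every other library, every DTEC library lay above the untreated wild-type ones, and DTEC overlapped the knockout. The gene thus rose 1.57-fold at 7 days (log2 0.65, SE 0.10, adjusted p = 6.33e-05) and stood 1.29-fold above the untreated level at 28 days (log2 0.37, SE 0.10, adjusted p = 0.00804). Between 7 and 28 days it fell by 0.28 on the log2 scale (SE 0.10, adjusted p = 0.03). That fall did not pass without a count filter (adjusted p = 0.117), with the compared libraries fitted alone (0.0979) or without DTEC replicate 3 (0.0699). BCL2L11 shares 727 exonic bases with the antisense transcript MIR4435-2HG, whose level was 43.1 ± 2.07 CPM in untreated wild-type cells, 41.5 ± 9.83 in DTC, 46.3 ± 3.30 in DTEC and 39.7 ± 3.36 in the knockout (SD, n = 3). The 12 values of BCL2L11 were all whole numbers and none of the 12 of MIR4435-2HG were, and whether counting used strand is not given in the sources used here.

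BMF (chr15:40087890-40108892, minus strand), a BH3-only gene whose protein is held at the cytoskeleton, had the widest range of the family in fold. Its levels were 3.14, 3.51 and 4.12 CPM in untreated wild-type cells, 43.7, 34.8 and 38.6 CPM in DTC, 23.5, 21.5 and 24.2 CPM in DTEC and 6.18, 6.31 and 6.33 CPM in the knockout. No group overlapped another, in the order DTC, DTEC, knockout and untreated wild type. BMF rose 10.8-fold at 7 days (log2 3.44, SE 0.13, adjusted p = 9.91e-11) and was 6.42-fold above the untreated level at 28 days (log2 2.68, SE 0.13, adjusted p = 2.49e-09). From 7 to 28 days it fell by 0.76 on the log2 scale (SE 0.11, adjusted p = 7.42e-05).

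BBC3 (chr19:47220822-47232766, minus strand) encodes PUMA, a potent BH3-only protein and a p53 target. It was low in untreated wild-type cells, at 1.43, 1.65 and 1.79 CPM (48 to 62 counts), and reached 5.17, 8.24 and 8.39 CPM in DTC, 8.22, 7.87 and 8.63 CPM in DTEC and 1.90, 2.78 and 2.57 CPM in the knockout. The treated groups overlapped each other and lay above both untreated groups. BBC3 rose 4.47-fold at 7 days (log2 2.16, SE 0.21, adjusted p = 5.38e-07) and 5.06-fold at 28 days (log2 2.34, SE 0.21, adjusted p = 7.36e-07). The difference between the 2 times was 0.18 on the log2 scale, with an interval of 2 SE from -0.20 to 0.56 (adjusted p = 0.446), and it was -0.03 without DTC replicate 1, the lowest library of its group.

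PMAIP1 (chr18:59899948-59904306, plus strand) encodes NOXA, a BH3-only protein that binds MCL1. Its levels were 16.5, 16.0 and 18.4 CPM in untreated wild-type cells, 36.0, 48.7 and 42.8 CPM in DTC, 19.2, 22.5 and 17.6 CPM in DTEC and 13.4, 11.8 and 11.5 CPM in the knockout. DTC lay above all other libraries and DTEC overlapped the untreated wild-type group. The gene rose 2.5-fold at 7 days (log2 1.32, SE 0.13, adjusted p = 5.71e-07). At 28 days its log2 difference from untreated cells was 0.22, with an interval of 2 SE from -0.04 to 0.48 (adjusted p = 0.178), and from 7 to 28 days it fell by 1.11 on the log2 scale (SE 0.13, adjusted p = 7e-06).

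BIK (chr22:43110748-43129712, plus strand), whose BH3-only protein sits at the endoplasmic reticulum, varied most between libraries of a group for its level. It measured 1.43, 3.10 and 2.45 CPM in untreated wild-type cells, 2.57, 6.27 and 5.16 CPM in DTC, 0.914, 1.07 and 1.26 CPM in DTEC and 1.19, 1.59 and 0.829 CPM in the knockout, on 28 to 213 counts per library. DTC overlapped untreated wild-type cells, and DTEC lay below both. BIK was 2.01-fold higher at 7 days (log2 1.01, SE 0.34, adjusted p = 0.0172) and fell by 1.10 on the log2 scale at 28 days against untreated cells (SE 0.37, adjusted p = 0.0217). The 7-day call was lost without untreated replicate 1 (log2 0.78, adjusted p = 0.0674) or DTC replicate 2 (log2 0.80, adjusted p = 0.068). The 28-day call was lost without untreated replicate 2 (adjusted p = 0.104), untreated replicate 3 (0.0564), DTEC replicate 1 (0.0796) or DTEC replicate 2 (0.059). From 7 to 28 days BIK fell by 2.10 (SE 0.36, adjusted p = 0.000225), the largest change of the family in that comparison.

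**Figure D1:**
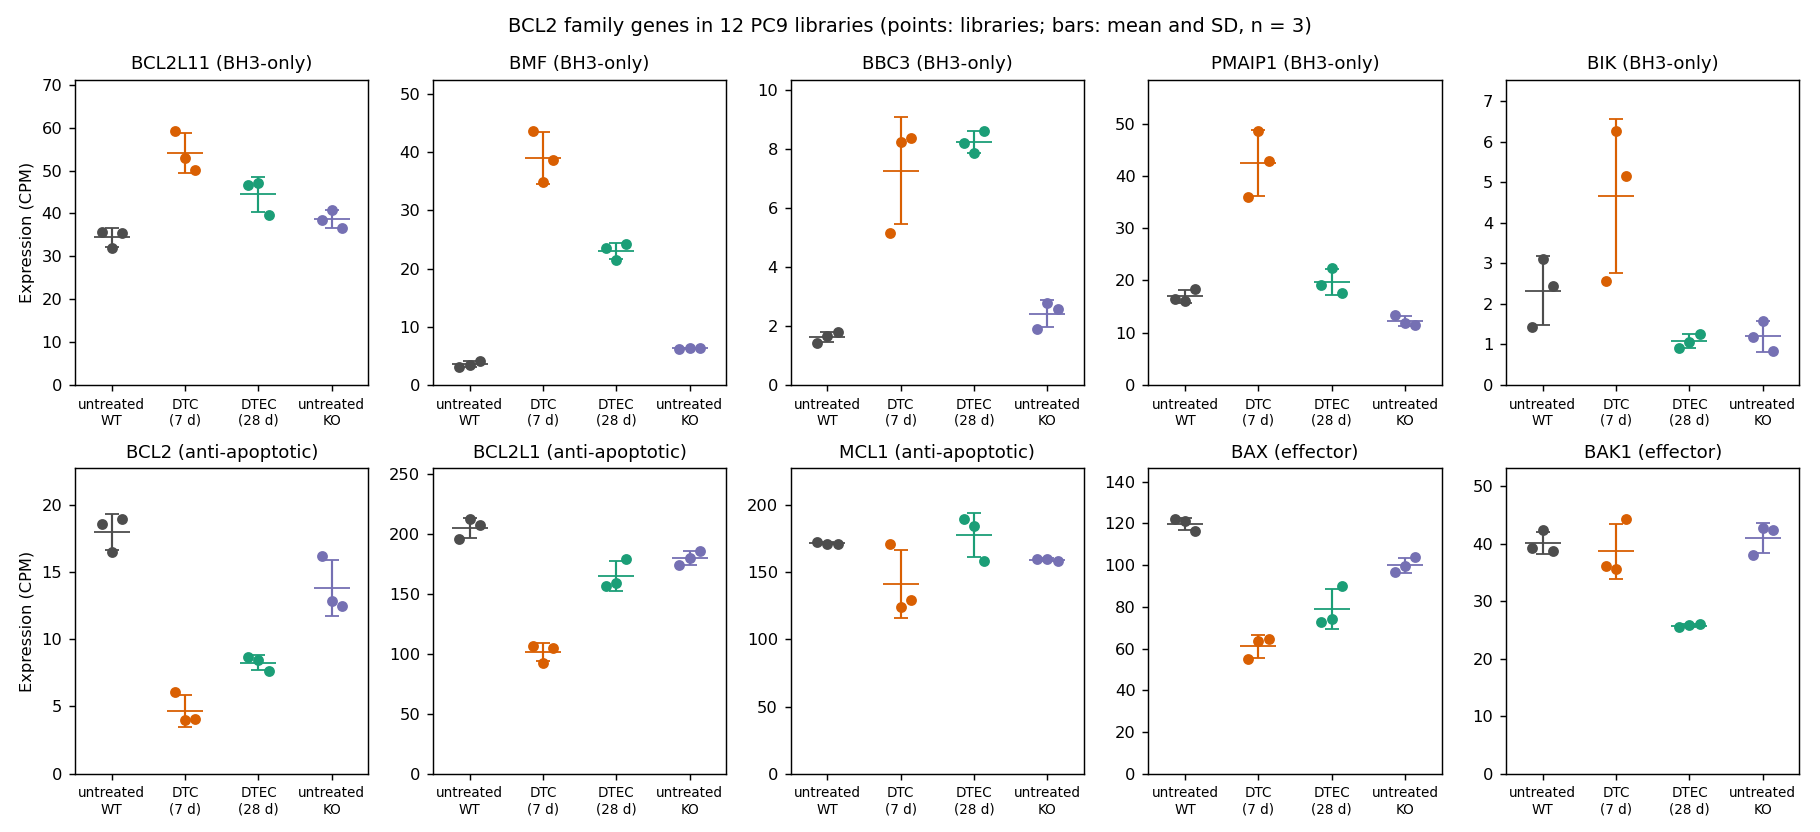
Expression of the 10 genes in CPM, one panel a gene with an axis from 0, for the 4 groups. Points are libraries and bars are the mean and SD (n = 3). BMF runs from 3.14 to 43.7 CPM without overlap between groups, and BCL2, BCL2L1 and BAX are lowest in DTC.

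Among the anti-apoptotic genes, BCL2 (chr18:63123346-63320128, minus strand) measured 18.6, 16.5 and 18.9 CPM in untreated wild-type cells, 6.05, 3.97 and 4.05 CPM in DTC, 8.68, 8.44 and 7.61 CPM in DTEC and 16.2, 12.8 and 12.5 CPM in the knockout. The groups did not overlap. BCL2 fell 3.85-fold at 7 days (log2 -1.94, SE 0.17, adjusted p = 1.38e-07) and was 2.18-fold lower than in untreated cells at 28 days (log2 -1.13, SE 0.16, adjusted p = 4.38e-05), having risen by 0.82 on the log2 scale between the 2 times (SE 0.17, adjusted p = 0.000861).

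BCL2L1 (chr20:31664452-31723989, minus strand), which encodes BCL-XL, measured 196, 212 and 207 CPM in untreated wild-type cells, 106, 92.5 and 105 CPM in DTC, 156, 159 and 179 CPM in DTEC and 175, 180 and 186 CPM in the knockout. DTC was lowest and untreated wild type highest, with DTEC and the knockout overlapping between them. The gene fell 2.03-fold at 7 days (log2 -1.02, SE 0.09, adjusted p = 2.84e-07) and rose by 0.70 from 7 to 28 days (SE 0.09, adjusted p = 2.2e-05). At 28 days it was still 1.24-fold lower than in untreated cells (log2 -0.31, SE 0.09, adjusted p = 0.0108). That last call was lost under upper-quartile scaling (adjusted p = 0.0736), total-count scaling (0.199) and no count filter (0.064), and without untreated replicate 2 (0.0719), untreated replicate 3 (0.0631), DTEC replicate 1 (0.0782) or DTEC replicate 2 (0.0778).

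MCL1 (chr1:150574551-150579738, minus strand), whose short-lived protein is a partner of NOXA, had the narrowest range of group means, from 82.3% to 103% of the untreated wild-type mean. It measured 173, 171 and 171 CPM in untreated wild-type cells, 171, 124 and 129 CPM in DTC, 190, 184 and 159 CPM in DTEC and 160, 160 and 159 CPM in the knockout. DTC replicate 1 lay just below the untreated wild-type range and the other 2 DTC libraries well below it. The 7-day change was a fall of 1.22-fold (log2 -0.28, SE 0.12, adjusted p = 0.0456). The call held with the replicate number as a block and without DTC replicate 1. The log2 value was -0.40 without DTC replicate 1 (adjusted p = 0.000379), -0.13 without DTC replicate 2 (adjusted p = 0.34) and 0.07 under total-count scaling (adjusted p = 0.588). At 28 days MCL1 differed from untreated cells by 0.05 on the log2 scale, with an interval of 2 SE from -0.19 to 0.28 (adjusted p = 0.756). The rise of 0.33 from 7 to 28 days (SE 0.12, adjusted p = 0.0275) passed in 5 of 14 alternatives.

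The effector BAX (chr19:48954815-48961798, plus strand) measured 122, 121 and 117 CPM in untreated wild-type cells, 54.9, 63.8 and 64.6 CPM in DTC, 72.8, 74.1 and 90.1 CPM in DTEC and 96.6, 99.3 and 104 CPM in the knockout, and no group overlapped another. BAX fell 1.96-fold at 7 days (log2 -0.97, SE 0.10, adjusted p = 1.31e-06) and was 1.52-fold below the untreated level at 28 days (log2 -0.60, SE 0.10, adjusted p = 0.000228). The rise of 0.37 between the 2 times (SE 0.10, adjusted p = 0.00735) did not pass under upper-quartile scaling (adjusted p = 0.13), total-count scaling (0.142), with the compared libraries alone (0.0698) or without DTEC replicate 3 (0.0688).

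BAK1 (chr6:33572547-33580293, minus strand), the other effector, followed another course. It measured 39.3, 42.3 and 38.7 CPM in untreated wild-type cells, 36.2, 35.6 and 44.2 CPM in DTC, 25.5, 25.8 and 26.03 CPM in DTEC and 38.01, 42.7 and 42.4 CPM in the knockout. Untreated, DTC and knockout libraries overlapped and all DTEC libraries lay below them. At 7 days the log2 difference was -0.05, with an interval of 2 SE from -0.26 to 0.15 (adjusted p = 0.663), and under total-count scaling it was 0.30 and passed (adjusted p = 0.0179). At 28 days BAK1 was 1.56-fold below untreated cells (log2 -0.64, SE 0.10, adjusted p = 0.000138) and it fell by 0.59 between 7 and 28 days (SE 0.10, adjusted p = 0.000265).

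**Figure D2:**
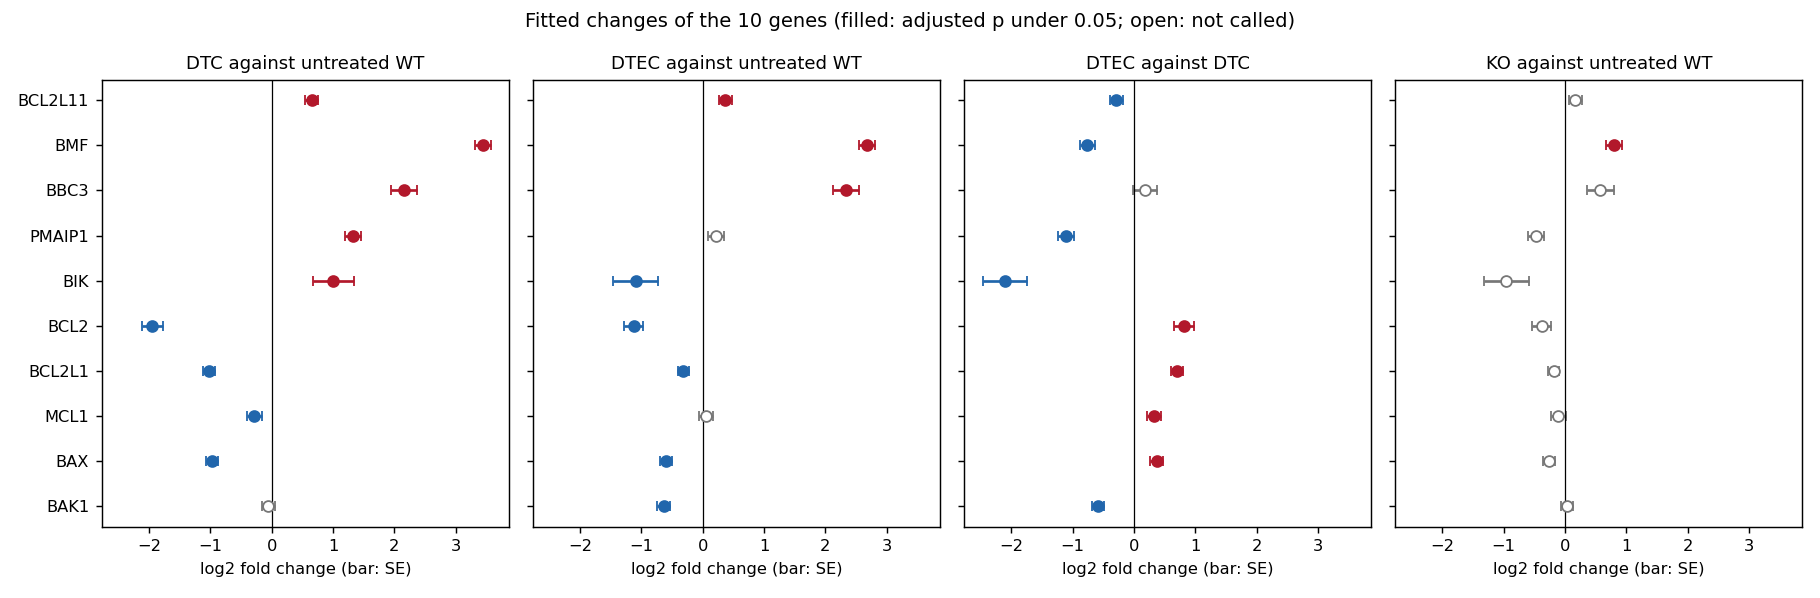
Fitted log2 fold change of each gene in the 4 comparisons, with bars of 1 SE. Filled points passed an adjusted p under 0.05 and open points did not. BMF stands furthest to the right at 7 days (3.44) and at 28 days (2.68), and it is the only filled point in the knockout comparison.

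Counted over the family, 8 of the 10 genes were called at 28 days against untreated cells (3 higher and 5 lower), where 52.3% of all genes tested were called, 26.0% higher and 26.3% lower. BCL2L11, BMF and BBC3 were higher, BIK, BCL2, BCL2L1, BAX and BAK1 were lower, and PMAIP1 and MCL1 did not pass. The groups did not overlap in 8 of the 10, against 62.4% of all genes. The median log2 fold change of the family was -0.13, against 0.02 over all genes. Under total-count scaling increases made up 63.7% of all calls instead of 49.7%, with a median shift of 0.17, and PMAIP1 then passed as higher (log2 0.39, adjusted p = 0.025).

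Between 7 and 28 days, 9 of the 10 genes were called, against 55.4% of all genes tested. BCL2, BCL2L1, MCL1 and BAX were higher at 28 days (28.8% of all genes were), and BCL2L11, BMF, PMAIP1, BIK and BAK1 were lower (26.6% of all genes were). For BCL2L11, BMF, PMAIP1, BCL2, BCL2L1 and BAX the 28-day mean lay between the untreated and the 7-day mean, at 129%, 643%, 116%, 45.8%, 80.4% and 65.9% of the untreated mean. BIK and BAK1 went below the untreated mean, to 46.5% and 64.2% of it. Libraries did not overlap in 8 of the 10, against 56.7% of all genes. The median log2 fold change was -0.05 in the family and -0.01 over all genes. Increases made up 51.9% of all calls, 37.4% under total-count scaling and 38.7% under upper-quartile scaling, with median shifts of -0.19 and -0.17.

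In the untreated TDP1 knockout line 1 of the 10 genes passed the test, against 4.32% of the genes tested (2.77% higher and 1.55% lower). The call was BMF, 1.75-fold higher than in untreated wild-type cells (log2 0.80, SE 0.13, adjusted p = 0.00301), and it passed in all 14 alternatives. With levels of 6.18 to 6.33 CPM against 3.14 to 4.12 CPM, it lay below the 34.8 to 43.7 CPM of DTC. In 8 of the 10 genes the knockout libraries did not overlap the wild-type ones, against 35.7% of all genes, and 7 of those 8 did not pass the adjusted test. PMAIP1 came nearest (log2 -0.47, SE 0.13, adjusted p = 0.0616) and passed with DESeq2 (adjusted p = 0.02). Fitting the 6 wild-type and knockout libraries alone called 4 of the 10 genes: BMF, PMAIP1 (log2 -0.45, adjusted p = 0.0066), BCL2 (log2 -0.36, adjusted p = 0.0396) and BAX (log2 -0.24, adjusted p = 0.0091). That fit called more genes of every kind, 2656 of the 15183 it tested. Without a count filter BIK passed beside BMF (log2 -0.93, adjusted p = 0.0361), and 1146 of 31494 genes were called. BCL2L11 differed by 0.17 (2 SE from -0.04 to 0.37, adjusted p = 0.454) and BAK1 by 0.03 (2 SE from -0.17 to 0.24, adjusted p = 0.912). Median log2 fold changes were -0.15 in the family and -0.01 over all genes. Increases made up 64.1% of all knockout calls, and 78.8% under total-count scaling. The treated and knockout comparisons share their untreated wild-type libraries, and the knockout comparison rests on 1 knockout line.

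To compare levels between genes, CPM was divided by the exon length of each gene in kilobases (GENCODE 29). On this scale, of the 5 BH3-only members, PMAIP1 had the largest share of their sum in untreated wild-type cells, 46.4%, and BCL2L11 followed with 31.6%. Outside the 10 genes, the BH3-only gene BAD was higher, at 14.1 ± 2.27 CPM per kilobase, and BID, at 7.65 ± 0.195, was level within the spread with PMAIP1, at 7.60 ± 0.550 (SD, n = 3). BMF supplied 4.01% of that sum, and then 17.5% in DTC, 18.1% in DTEC and 7.99% in the knockout. The BBC3 share was 3.11% in untreated wild-type cells, 5.46% in DTC and 11.1% in DTEC. The largest share in DTC was still that of PMAIP1, 45.7%. Among the anti-apoptotic genes, BCL2L1 held 60.2% of the sum in untreated wild-type cells and 48.5% in DTC, MCL1 held 38.3% and 50.9%, and BCL2 held 1.49% and 0.624%. BCL2 stayed between 0.624% and 1.49% of the anti-apoptotic sum over the 4 group means.

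The summed level of the 5 BH3-only members was 16.4 ± 1.07 CPM per kilobase in untreated wild-type cells, 41.5 ± 3.97 in DTC, 23.5 ± 1.16 in DTEC and 14.5 ± 0.845 in the knockout (SD, n = 3). The sum of the 3 anti-apoptotic members was 102.7 ± 2.26, 63.3 ± 7.63, 91.1 ± 0.148 and 92.1 ± 1.4 in the same order. Their ratio ran from 0.153 to 0.169 in untreated wild-type libraries, 0.522 to 0.799 for DTC, 0.245 to 0.271 for DTEC and 0.144 to 0.164 for the knockout. The ratio in DTC lay above that of every other library and DTEC lay above both untreated groups, which overlapped. With all 8 BH3-only and 6 anti-apoptotic genes of the lists, a choice added after seeing the data, the ratio ran from 0.324 to 0.367 in untreated wild-type libraries, 0.670 to 1.15 for DTC, 0.390 to 0.424 for DTEC and 0.390 to 0.429 for the knockout. DTC was then still highest, and DTEC overlapped the knockout. BAD and BID did not pass at 7 days (log2 0.08 and 0.01, adjusted p = 0.834 and 0.906), though BID did under total-count and upper-quartile scaling. BAD passed as higher without DTC replicate 1 (adjusted p = 0.0297). Its DTC replicates 1, 2 and 3 measured 11.4, 33.7 and 31.0 CPM. These sums describe transcripts and carry no test. The ratio of BAX to BAK1 per kilobase was 2.56 ± 0.105 in untreated wild-type cells, 1.36 ± 0.154 in DTC, 2.62 ± 0.294 in DTEC and 2.08 ± 0.0917 in the knockout.

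**Figure D3:**
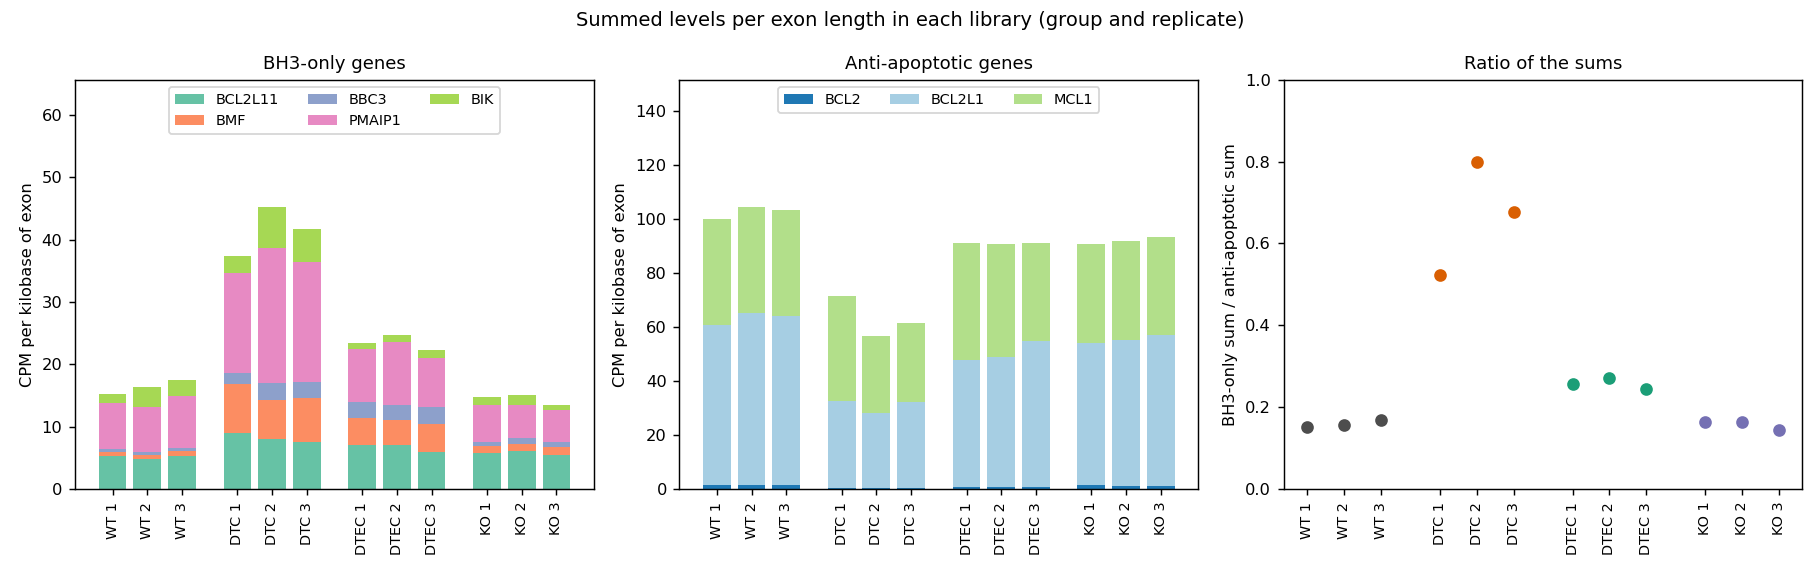
Levels per kilobase of exon summed over the 5 BH3-only members and over the 3 anti-apoptotic members in each of the 12 libraries (stacked bars from 0), and the ratio of the sums. The ratio is 0.522 to 0.799 in DTC and at most 0.271 in every other library.

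The other genes of the pathway were counted from lists, and the share of all genes tested that passed in the same comparison follows each count. Of 13 further BCL2 family genes, 11 were tested (BCL2A1 and BCL2L10 were too low), and 3 were higher and 1 lower at 7 days (67.3% of all genes called), 4 and 3 at 28 days (52.3%), and 3 and 2 between 7 and 28 days (55.4%). HRK, another BH3-only gene, measured 2.87, 3.37 and 2.94 CPM in untreated wild-type cells, 8.85, 6.89 and 6.57 CPM in DTC and 16.7, 15 and 11.7 CPM in DTEC. It rose at 7 days (log2 1.28, SE 0.17, adjusted p = 1.02e-05) and further from 7 to 28 days (log2 0.96, SE 0.16, adjusted p = 0.000148), and so was highest at 28 days. Of its 12 values 4 were whole, so some of its reads were shared out between features. HRK was also the 1 gene called in the knockout among the 11 tested from this list, where 4.32% of all genes were called. It measured 4.63 to 5.16 CPM there (log2 0.69, adjusted p = 0.0338). That call was lost in each of the fits that left out a library of the pair. BNIP3L, a mitophagy receptor, rose from 44.0 ± 3.12 CPM to 92.0 ± 3.83 in DTC and 107 ± 4.65 in DTEC (log2 1.07 and 1.28, adjusted p = 1.15e-07 and 7.61e-08). BCL2L14 was near the counting floor in untreated wild-type cells, with 1 to 4 counts, and measured 1.01 to 1.18 CPM in DTC and 1.07 to 1.4 CPM in DTEC. With 2 to 7 counts in the knockout, it passed the count filter only through treated cells. It is among the genes counted as higher at both times, and its calls add no support to those counts.

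Downstream of the mitochondrion, 3 of 7 apoptosome and caspase genes were higher and 1 lower at 7 days (67.3% of all genes called), 2 and 1 at 28 days (52.3%), 0 and 3 between the 2 times (55.4%), and none passed in the knockout (4.32%). APAF1, the scaffold of the apoptosome, went from 6.80 ± 0.857 CPM to 15.4 ± 3.53 in DTC and 17.7 ± 2.44 in DTEC (log2 1.17 and 1.38, adjusted p = 2.59e-05 and 1.23e-05). CASP9, the caspase it activates, rose by 1.12 at 7 days (adjusted p = 5.91e-06). CYCS, which encodes cytochrome c, moved the other way: it fell from 488 ± 44.5 CPM to 157 ± 6.65 CPM in DTEC (log2 -1.63, SE 0.14, adjusted p = 4.81e-07).

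Of the 7 inhibitor of apoptosis (IAP) genes, 4 were higher and 1 lower at 7 days (67.3% of all genes called) and at 28 days (52.3%), and 3 were higher and 3 lower between them (55.4%). In the knockout, where 4.32% of all genes were called, 1 was lower (BIRC2, log2 -0.41, adjusted p = 0.0286, lost in each fit without a library of the pair, under total-count scaling and without a count filter). BIRC3, which encodes cIAP2 and is a target of NF-kB, measured 7.65, 5.56 and 7.18 CPM in untreated wild-type cells, 207, 164 and 161 CPM in DTC and 9.29, 7.68 and 5.17 CPM in DTEC. DTC lay far above both other groups, which overlapped. The rise at 7 days was 4.70 on the log2 scale (SE 0.21, adjusted p = 4.58e-10) and the following change was -4.59 (SE 0.21, adjusted p = 1.2e-09). BIRC2, which encodes cIAP1, rose by 1.55 at 7 days (SE 0.10, adjusted p = 8.34e-09) and fell by 1.22 from 7 to 28 days (SE 0.10, adjusted p = 1.95e-07). BIRC7 had 0 to 2 counts in untreated wild-type cells and measured 2.77, 6.39 and 5.51 CPM in DTC and 0.275 to 0.726 CPM in DTEC. With 0 to 4 counts in the knockout, it passed the count filter only through treated cells. It is among the genes counted as higher at both times, and its calls add no support to those counts. BIRC5, which encodes the mitotic protein survivin, fell from 143 ± 4.67 to 37.5 ± 7.55 CPM in DTC and 62.7 ± 8.52 CPM in DTEC (log2 -1.93 and -1.19, adjusted p = 2.48e-08 and 6.31e-06), with 1 of its 12 values whole. NAIP was 1.17 higher at 28 days (adjusted p = 0.00046), and none of its 12 values was whole, so its reads were shared with other features.

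Among 8 genes for partners and turnover of the proteins, 0 were higher and 2 lower at 7 days (67.3% of all genes called) and at 28 days (52.3%), and 2 were higher and 1 lower between the 2 times (55.4%). That 1 was DYNLL1, the dynein light chain that can hold BIM at the dynein motor, which measured 119, 308 and 206 CPM in DTC and 96.7, 102 and 116 CPM in DTEC (log2 -1.01, SE 0.24, adjusted p = 0.00322). The DTC libraries of DYNLL1 spanned the untreated range of 186 to 213 CPM. For transcription factors known to act on family genes, 8 of 9 were tested, and 4 were higher and 2 lower at 7 days (67.3% of all genes called), 6 and 1 at 28 days (52.3%), 4 and 2 between the 2 times (55.4%), and none passed in the knockout (4.32%). FOXO4, a forkhead factor, rose from 6.45 ± 0.739 CPM to 15.8 ± 2.88 in DTC and 26.3 ± 1.55 in DTEC (log2 1.3 and 2.03, adjusted p = 1.32e-06 and 6.3e-08). DDIT3, which encodes the stress factor CHOP, rose from 8.0 ± 1.17 CPM to 25.1 ± 6.30 and 16.4 ± 3.53 (log2 1.65 and 1.03, adjusted p = 4.74e-06 and 0.000581). TP63 went from 0.578 ± 0.124 CPM to 4.50 ± 1.21 in DTC (log2 2.94, adjusted p = 5.18e-07) and fell by 2.20 by 28 days (adjusted p = 1.18e-05). FOXO3 and ATF4 were higher at 28 than at 7 days, by 1.08 (adjusted p = 8.16e-05) and 1.07 (adjusted p = 3.11e-06), with no whole value among the 12 of FOXO3. FOXO3 averaged 170 ± 2.79 CPM in untreated wild-type cells, 119 ± 37.7 in DTC and 251 ± 26.2 in DTEC. It was called lower at 7 days (log2 -0.51, SE 0.16, adjusted p = 0.0122), and that call held in 10 of 14 alternatives. ATF4 averaged 529 ± 32.4, 417 ± 64.7 and 879 ± 53.6 CPM in the same order.

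**Figure D4:**
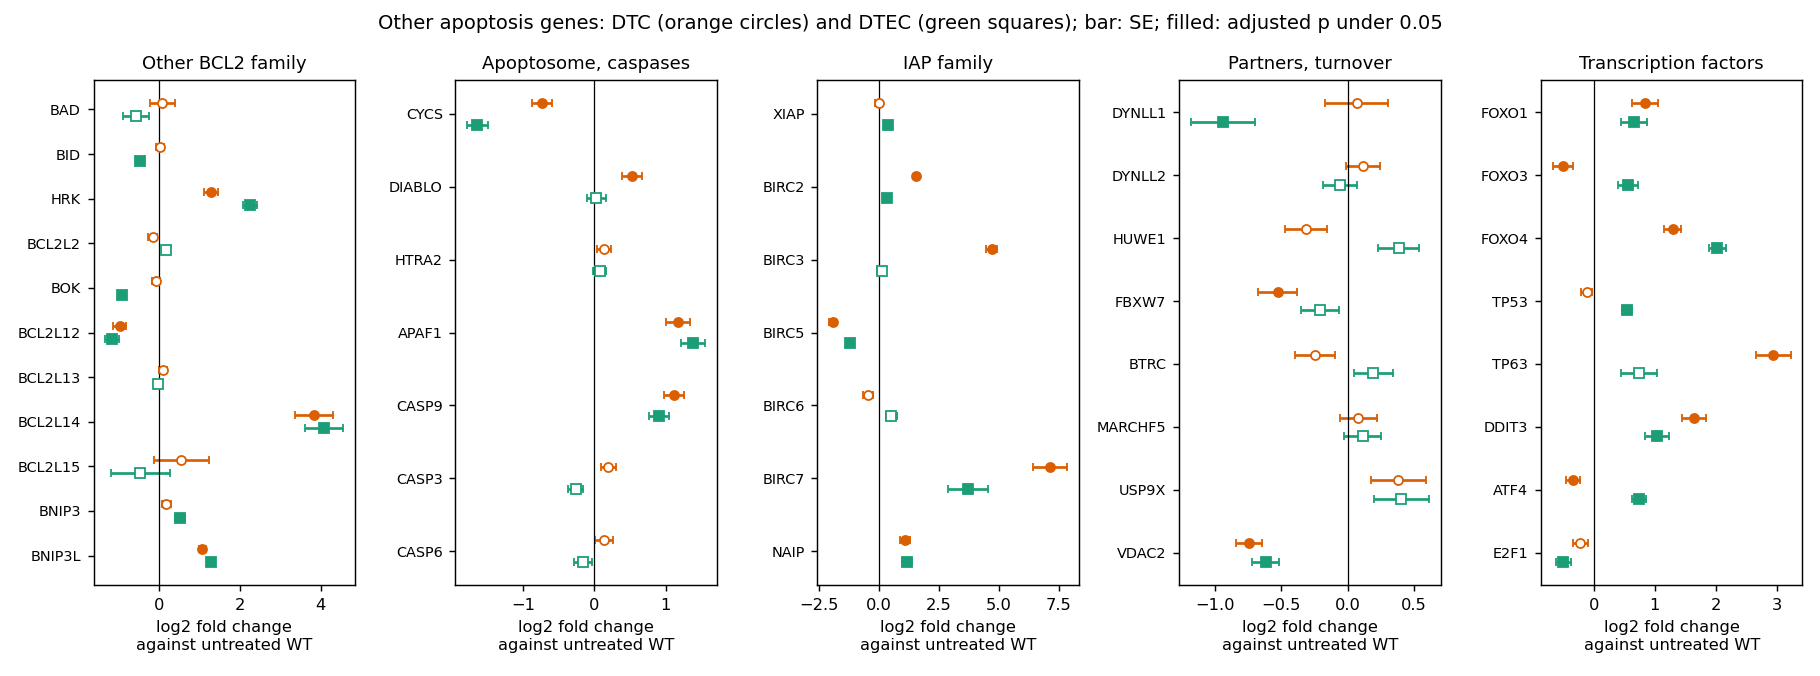
Log2 fold changes of other apoptosis genes against untreated wild-type cells in 5 panels, DTC as circles and DTEC as squares, with bars of 1 SE and filled points for an adjusted p under 0.05. BIRC3 is at 4.70 in DTC and 0.11 in DTEC, and HRK is higher in DTEC (2.24) than in DTC (1.28). The fitted points of BIRC7 and BCL2L14 rest on an untreated level near the counting floor and are not to be read as sizes.

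The genes whose levels over the 12 libraries were most like those of BCL2L11 were found by the mean absolute difference of mean-centred log2 CPM, among 13687 candidates with a median difference of 0.43. The nearest were UGGT2 (0.0523), NBPF12 (0.0633), PLEKHA1 (0.0668), C1GALT1 (0.0679) and UBXN4 (0.0694). UGGT2, the nearest, averaged 35.8 CPM in untreated wild-type cells, 53.2 in DTC, 48.9 in DTEC and 39.0 in the knockout. None of the 5 is a BCL2 family gene.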

How the data were processed

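Per the labels, polyadenylated RNA of PC9 cells was made into stranded libraries and sequenced as pairs, all in 1 batch. The values the authors deposited were estimated counts per gene (expected counts), not scaled to depth and with 0 columns of other samples. The submitters' processing notes name RSEM 1.3.1, Bowtie2 2.5.2, DESeq2 1.40.2 and GRCh38, with no role or order. The annotation release and the strand setting are not given in the sources used here.

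Rounded counts went into edgeR 4.0.16 (R 4.3.3): filterByExpr by group (17115 of 62754 genes, including all 10 members), TMM scaling, 1 mean per group over all 12 libraries, robust dispersion, quasi-likelihood F tests and Benjamini-Hochberg adjustment over all genes tested, with calls at an adjusted p under 0.05. Adjusted p-values come from this fit unless another tool is named. CPM uses TMM-scaled totals, 3 counts serve as the floor, and floors cover counting error only. Coordinates and exon lengths are from GENCODE 29, promoters from RefSeq. DESeq2 1.42.0 and 13 other settings were alternatives.

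The members and lists were chosen with earlier results of these data known. All 10 members are named. From each other list, the genes called with an absolute log2 fold change of at least 1 are named, at most 3 per list and comparison, and for likeness the 5 nearest genes to BCL2L11. HRK and BIRC2 in the knockout were named because their lists had 1 call, after their values were seen, as were further values of named genes. Of the pathway genes, 1 was left out of its list and is not reported here.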

Additional observations from a re-analysis of the deposited data

Results flagged for a closer look

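For 9 of the 10 genes the level differed between 28 and 7 days of erlotinib, by the test of the difference itself (DTEC minus DTC, log2 scale, edgeR quasi-likelihood test, 3 libraries a group). The difference was negative for BIK (-2.10), PMAIP1 (-1.11), BMF (-0.76), BAK1 (-0.59) and BCL2L11 (-0.28). It was positive for BCL2 (0.82), BCL2L1 (0.70), BAX (0.37) and MCL1 (0.33). Over all genes tested, 55.4% were called in the same comparison. BBC3, at 0.18, did not pass (adjusted p = 0.446). The calls of MCL1, BAX and BCL2L11 held in 5, 10 and 11 of 14 alternatives. No untreated library carries a day label. A change in the effect of erlotinib therefore cannot be told apart from other differences between the 7-day and 28-day cultures.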

How the results depend on the processing

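Over 14 alternatives in each of the 4 comparisons, 505 of 560 member values kept their direction and their side of the threshold, 39 fell short of it, 6 passed it newly and 10 changed sign. The members called ranged over 7 to 9 at 7 days, 6 to 8 at 28 days, 6 to 9 between the times and 1 to 4 in the knockout. At 7 days, MCL1 was 0.0040 under upper-quartile and 0.0734 under total-count scaling. BAK1 was 0.2365 and 0.3027 under the same scalings, 0.0569 with a stricter count filter, 0.0101 without untreated replicate 2, 0.0296 without DTC replicate 1 and 0.0644 without DTC replicate 2, and it was as low as -0.1176 without DTC replicate 3. Between the times, BBC3 was -0.0079 under total-count scaling and -0.0289 without DTC replicate 1, and as high as 0.2765 without DTC replicate 3. In the knockout, 2 members were called without a count filter (1146 of 31494 genes) and 2 with DESeq2 (1150 of 17115 genes). With the compared libraries alone 4 were called (2656 of 15183 genes), against 1 member and 739 of 17115 genes in the main fit. Leaving out 1 library of the pair gave 321 (without untreated replicate 1) to 426 genes (without untreated replicate 2) and 1 member each time. The fits that leave out a library use fewer samples, and the cause of these differences in calls was not tested. Replicate numbers were shared between groups, and same-numbered libraries deviated together only weakly (correlations from -0.01 to 0.18). Deviations from means of 3 libraries cannot settle whether the numbers pair them, and the main fit used no block. A replicate block called 9, 8, 9 and 1 members and 11776, 9254, 9733 and 887 genes. The main fit called 11517, 8956, 9481 and 739 genes. BIK rested on as few as 28 counts in a library, which limits its precision.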
